A study of Mus musculus with 6 samples.

Results

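The 47 genes described here are type I interferon response genes, chosen by symbol from the rows of the deposited expression matrix. The choice was made with earlier results of these data known. Of these, 44 had a row among the 11452 genes of the matrix, and Oas2, Mx1 and Mx2 were not analysed here. They were sorted by role into 6 sensors of nucleic acids, 5 genes of the oligoadenylate synthetase (OAS) family, 5 transcription factors or partners of such factors, 9 regulators that act through ISG15, ubiquitin or ADP-ribose, 12 direct antiviral effectors and 7 other induced genes.

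Pools of 4T1, a cell line from a mouse mammary tumour, were sequenced that were either knockout (KO) or wild type (WT) for Myo1e, which encodes the class I myosin motor 1e. There were 3 libraries per genotype, which the submitters call biological replicates. No treatment, interferon included, is named in the labels for either genotype, and the sources used here give neither the way the knockout was made nor the origin of the pools. Libraries are named by genotype and the number of their column in the matrix, which is 1, 2 or 4, and values for a genotype are given in that order.

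Type I interferons bind a receptor on nearly every cell type and, through Janus kinases, activate STAT proteins, which join IRF9 in a complex that binds the interferon-stimulated response element (ISRE) in promoters. The genes turned on in this way sense foreign nucleic acid, block steps of virus growth, and include factors such as IRF7 that feed back on interferon production. Many of the genes are also expressed at a low level without added interferon.

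Values are log2 CPM, the log2 of reads scaled to the effective library size. The reads recovered from these values numbered 17772003 to 19988206 per library, and 3 reads, the most that a count of 0 allows, correspond to 0.144 to 0.173 CPM, which covers counting error only. Myo1e stood at 6.87, 6.81 and 6.81 in the KO libraries and at 7.09, 7.02 and 6.91 in the WT libraries, a difference of -0.18 (SE 0.09; limma, adjusted p = 1.00) with all KO libraries below all WT libraries. The transcript was thus present at nearly the same level in both genotypes, and whether the remaining transcript was altered was not tested here. Of the marker genes listed for other cell types, 3 of 22 for leukocytes (Cd68, Cd14 and Cd74), 2 of 10 for fibroblasts (Pdgfra and Postn) and 0 of 7 for endothelium were measured, against 11 of 12 for mammary epithelium. The other markers were not analysed here. The share of reads from the mitochondrial genome was 0.493%, 0.416% and 0.343% in the KO libraries and 0.435%, 0.379% and 0.309% in the WT libraries.

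Promoter sequences show what many of these genes share outside the expression values. The RefSeq promoter table (GRCm38.p6, 250 bases before to 50 after the transcription start) matched 37 of the 47 genes. An ISRE core, which is GAAA, any 2 bases and GAAA again on either strand, was found in 17 of the 37 genes, which is 45.9%, against 3.99% of all 27025 genes in that table. The core of the other interferon element, the gamma-activated site, TTCNNNGAA, was found in 9 of the 37, or 24.3%, against 9.55% of all genes. A match is a description of the letters and not a shown binding site. The printed sequences are up to 250 bases before the start, 5′ to 3′ on the strand of the gene, without bases that the GENCODE annotation places inside the gene, and the capitals mark ISRE cores. They are examples and do not stand for all 17 genes with a core. The genes are the modifier Isg15 at chr4:156200819-156201068 (minus strand), the effectors Ifit1 at chr19:34640639-34640870, Ifit3 at chr19:34583279-34583528 and Ifit3b at chr19:34607707-34607956 (plus strand), Rsad2 at chr12:26456453-26456702 and Oas3 at chr5:120777662-120777909 (minus strand), and Xaf1 at chr11:72301379-72301628 (plus strand) as a promoter without the core.
Isg15: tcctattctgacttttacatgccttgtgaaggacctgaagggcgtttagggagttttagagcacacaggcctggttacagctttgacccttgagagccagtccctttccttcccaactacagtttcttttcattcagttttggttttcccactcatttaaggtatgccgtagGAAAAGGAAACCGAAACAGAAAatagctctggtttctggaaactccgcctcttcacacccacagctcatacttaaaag
Ifit1: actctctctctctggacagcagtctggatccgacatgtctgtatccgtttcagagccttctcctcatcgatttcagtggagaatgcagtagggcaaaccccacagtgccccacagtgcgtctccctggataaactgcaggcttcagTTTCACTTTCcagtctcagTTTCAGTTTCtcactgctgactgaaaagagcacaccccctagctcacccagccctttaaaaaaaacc
Ifit3: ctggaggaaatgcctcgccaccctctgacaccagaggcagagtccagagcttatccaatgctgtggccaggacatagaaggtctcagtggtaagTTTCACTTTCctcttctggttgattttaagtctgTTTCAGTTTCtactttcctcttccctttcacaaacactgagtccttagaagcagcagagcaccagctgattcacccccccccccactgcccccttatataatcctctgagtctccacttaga
Ifit3b: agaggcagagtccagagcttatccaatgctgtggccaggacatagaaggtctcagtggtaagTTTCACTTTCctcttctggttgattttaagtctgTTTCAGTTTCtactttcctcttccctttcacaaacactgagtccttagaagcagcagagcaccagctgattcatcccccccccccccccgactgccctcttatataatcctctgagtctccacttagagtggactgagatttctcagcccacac
Rsad2: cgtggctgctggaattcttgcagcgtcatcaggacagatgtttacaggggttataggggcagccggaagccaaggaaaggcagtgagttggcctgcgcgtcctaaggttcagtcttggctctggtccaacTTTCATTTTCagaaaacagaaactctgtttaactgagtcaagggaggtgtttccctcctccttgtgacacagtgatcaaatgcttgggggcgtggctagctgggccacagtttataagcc
Oas3: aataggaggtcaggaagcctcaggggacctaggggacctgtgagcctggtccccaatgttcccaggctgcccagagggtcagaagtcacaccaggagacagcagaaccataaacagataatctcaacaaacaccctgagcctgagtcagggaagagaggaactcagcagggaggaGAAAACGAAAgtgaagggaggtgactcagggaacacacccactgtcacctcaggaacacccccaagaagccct
Xaf1: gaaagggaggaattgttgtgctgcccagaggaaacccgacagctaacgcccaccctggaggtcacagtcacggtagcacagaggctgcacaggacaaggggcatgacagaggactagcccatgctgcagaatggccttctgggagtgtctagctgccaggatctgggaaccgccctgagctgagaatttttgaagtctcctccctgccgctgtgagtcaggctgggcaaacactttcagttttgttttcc
Distances are counted back from the RefSeq start, and the printed Ifit1 and Oas3 windows of 232 and 248 bases stop short of it. Isg15 carried 3 overlapping cores that began 78 to 66 bases before the start, and Ifit1 carried 2, at 104 and 85 bases. The Ifit3 and Ifit3b windows held the same pair of cores within an identical run of 169 bases. Rsad2 had 1 core at 120 bases and Oas3 had 1 at 75 bases.

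The 44 genes varied together from library to library, and the high and low libraries were found in both genotypes. Their share of all reads was 0.103%, 0.0937% and 0.160% for the KO libraries and 0.151%, 0.0982% and 0.172% for the WT libraries. After each gene was centred on its mean over the 6 libraries, the median over the 44 genes was -0.33, -0.62 and 0.35 in the KO libraries and 0.49, -0.49 and 0.52 in the WT libraries. For all 11269 genes tested, the same medians lay between 0.000585 and 0.0125. KO 2 and WT 2 were the low libraries, WT 1, WT 4 and KO 4 the high ones, and KO 1 lay between them. The highest library was WT 4 for 23 genes, WT 1 for 16 and KO 4 for 5, and the lowest was KO 2 for 25, WT 2 for 14, KO 1 for 3 and KO 4 for 2. The summed CPM of the 3 leukocyte markers was 27.8, 18.4 and 66.2 in the KO libraries and 44.2, 23.2 and 77.3 in the WT libraries. Cd74, the invariant chain of MHC class II, varied most of the 3, at 3.60, 2.47 and 5.79 log2 CPM in the KO libraries and 4.78, 3.35 and 6.05 in the WT libraries. In the libraries numbered 4, against those numbered 1 and 2, the 3 markers moved in different directions. Cd74 was higher by 2.37 (limma with a genotype term, adjusted p = 0.000659), Cd14, a coreceptor for bacterial lipopolysaccharide, was lower at -0.45 (limma, adjusted p = 0.0189), and Cd68 did not pass, at -0.27 (limma, adjusted p = 0.360). The part of these markers in the pattern was not tested. In bulk RNA, fewer cells in which these genes are on and less RNA per cell cannot be told apart.

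**Figure D1:**
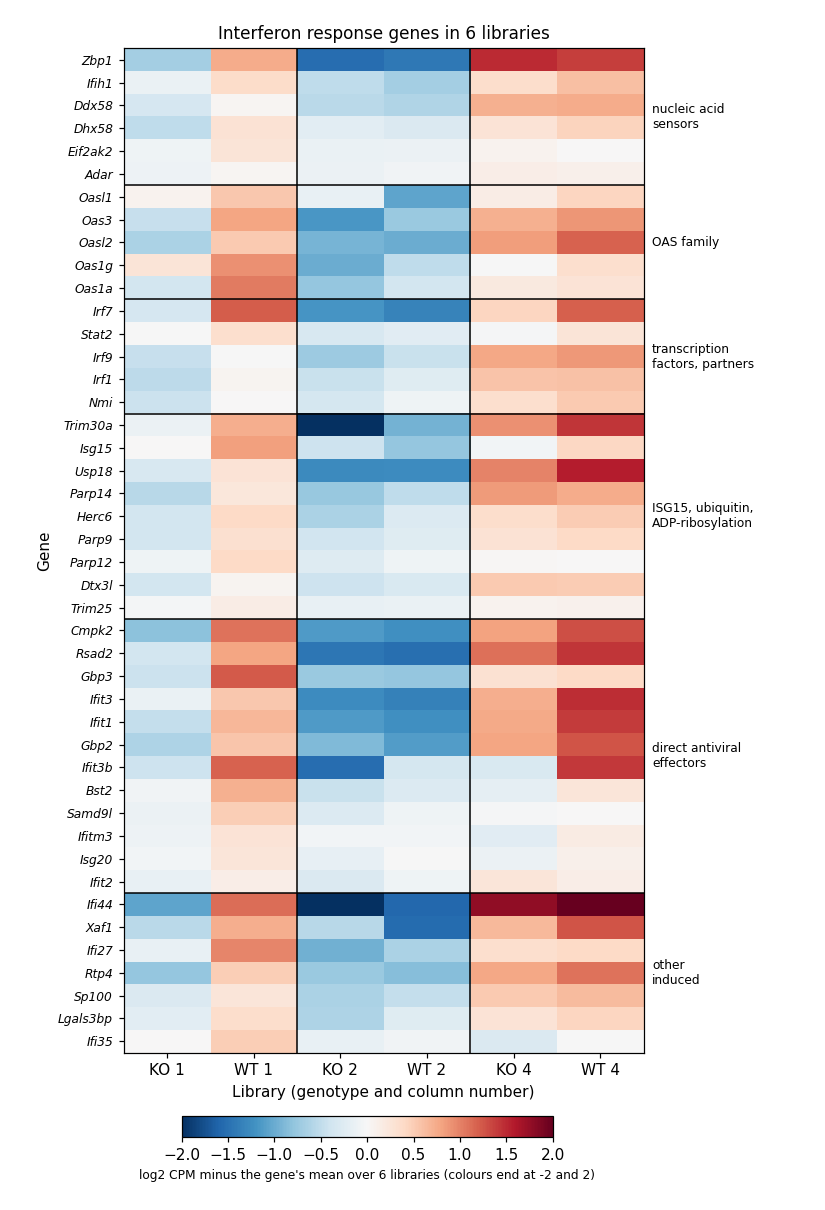
Each row is an interferon response gene, grouped by role, and each column a library, named by genotype and column number. Colours give the log2 CPM minus the gene's mean over the 6 libraries and end at -2 and 2. The columns of KO 2 and WT 2 are mostly blue and those of WT 1, KO 4 and WT 4 mostly red.

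The first question was whether these genes differed between KO and WT. On average they were slightly lower in KO, but no gene passed the test. The median difference was -0.31, a change of -19.5% in KO, against -0.01 over all genes tested, and 43 of the 44 genes lay below WT on average against 52.9% of all genes. The exception was Oasl1, at 0.05. Under limma, 0 of the 43 genes that passed the filter on low values were called at an adjusted p under 0.05, as were 0 of the 11269 genes (0.0%). At an unadjusted p under 0.05 there were 0 of the 43 and 23 of all genes (0.204%). Uniform p-values would put 563 of all genes there. This fit leaves the differences between column numbers in its error. Its median SE over the 43 was 0.43, against 0.13 with the column number as a block. Its high adjusted p-values are therefore not evidence of equal levels. With the column number as a replicate block, 0 of the 43 were called, against 0.00887% of all genes, and the lowest adjusted p was 0.226, for Lgals3bp. At an unadjusted p under 0.05 the blocked fit held 26 of the 43, every one lower in KO, against 5.08% of all genes lower and 9.91% in either direction. With number 4 as a term instead of the block, 7 of the 43 had an unadjusted p under 0.05, lower in KO, against 3.99%. These counts are descriptions and not a test of the list. The genes were chosen with earlier results known and vary together, and the pairing behind the block was taken from these data. The 7 measured mitochondrially encoded genes went the other way: each was higher in KO in 3 of 3 numbers, as were 1753 of all 11269 genes, and 5 of the 7 had an unadjusted p under 0.05 with the block, while 0 were called. Their part in the difference was not tested.

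Within the column numbers the median difference was most negative for number 1. Between KO 1 and WT 1 all 44 genes were lower in KO, with a median of -0.68, against 50.1% of all genes. Between KO 2 and WT 2 the median was -0.10 and 28 of 44 were lower, against 50.3%. Between KO 4 and WT 4 it was -0.21 with 37 of 44 lower, against 53.3%. The pair numbered 1 gave the most negative value for 40 of the 44 genes. KO was below WT in 3 of 3 numbers for 21 of 44 genes, against 17.0% of all genes, and only Isg20 had every KO library below every WT library (1.59% of all genes). The median was -0.14 without the libraries numbered 1 and -0.47 without those numbered 2. It was -0.66 without WT 2, -0.62 without KO 4, -0.14 without KO 2 and -0.13 without WT 4. The medians without WT 1 and without KO 1 lay between -0.66 and -0.13. The fit of the KO effect in number 4 against that in numbers 1 and 2 called 0 of the 43, as it did 0.0% of all genes. At an unadjusted p under 0.05 it held 0 of the 43 and 440 of all genes (3.9%).

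**Figure D2:**
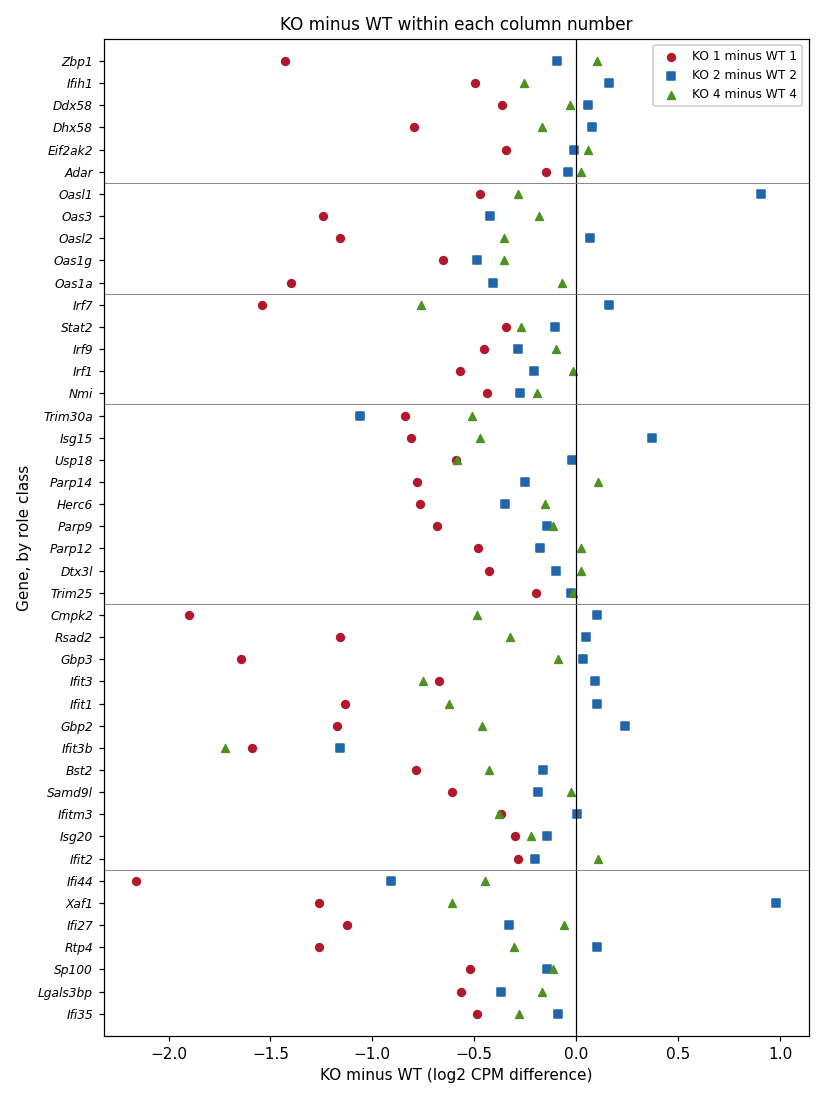
KO minus WT in log2 CPM for each gene within column numbers 1 (circles), 2 (squares) and 4 (triangles), grouped by role, with a vertical line at 0. All 44 circles lie left of 0 and are the leftmost mark for 40 genes, and the squares run from -1.16 for Ifit3b to 0.98 for Xaf1.

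The sensors recognise foreign or misplaced nucleic acid. All 6 were lower in KO on average, by a median of -0.15, and none was lower in all 3 numbers. Ddx58 (RIG-I), a cytosolic sensor of viral RNA ends, stood at 5.58, 5.37 and 6.62 in the KO libraries and 5.95, 5.32 and 6.66 in the WT libraries. Ifih1, the sensor of long double-stranded RNA, stood at 4.66, 4.27 and 5.14 in the KO libraries and 5.15, 4.11 and 5.39 in the WT libraries. Both genes showed the same order, with number 4 above number 1 and number 1 above number 2 in each genotype. Zbp1, a sensor of Z-form nucleic acid that can start necroptosis, stood at 0.53, -0.32 and 2.7 in the KO libraries and 1.96, -0.22 and 2.59 in the WT libraries. It was the most variable sensor, with 13 reads in KO 2 and 134 in KO 4, and its KO minus WT difference was -0.47 (SE 1.02; limma, adjusted p = 1.00). Dhx58, a helicase related to Ddx58 that tunes its signalling, stood at 1.50, 1.79 and 2.28 in the KO libraries and 2.30, 1.71 and 2.45 in the WT libraries. KO 1 was its lowest library. Eif2ak2, the kinase that stops translation on binding double-stranded RNA, stood at 5.85, 5.82 and 6.01 in the KO libraries and 6.20, 5.83 and 5.95 in the WT libraries. Adar, which edits double-stranded RNA and so keeps it from the sensors, stood at 6.55, 6.54 and 6.78 in the KO libraries and 6.70, 6.58 and 6.76 in the WT libraries. These 2 genes had the highest mean levels per kilobase of exon among the sensors, 3.60 and 3.63 log2 CPM per kilobase, and varied least, by 0.38 and 0.24 between their lowest and highest libraries.

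The OAS family makes the short oligoadenylates that switch on RNase L. Of the 5 genes, 4 were lower in KO on average and the median was -0.50. Oas1a stood at 1.79, 1.38 and 2.35 in the KO libraries and 3.19, 1.78 and 2.42 in the WT libraries, with WT 1 the highest library and a difference of -0.63 (SE 0.43; limma, adjusted p = 1.00). Oas1g, its near copy, stood at 0.93, -0.32 and 0.67 in the KO libraries and 1.59, 0.17 and 1.02 in the WT libraries. Both were lower in KO in each number. Of the 50-base stretches in their exons 57.6% and 45.7% also occur in other genes, nearly all in each other, so reads can be split between them. Oas3, a large member of the family whose promoter with 1 ISRE core is printed above, stood at 1.11, 0.40 and 2.28 in the KO libraries and 2.36, 0.83 and 2.46 in the WT libraries. It too was lower in KO in each number, with differences of -1.24, -0.42 and -0.18. Oasl1, a synthetase-like protein that lacks the enzyme activity, stood at 4.97, 4.75 and 5.05 in the KO libraries and 5.44, 3.84 and 5.34 in the WT libraries. Its single low library was WT 2, which placed KO 2 above WT 2 by 0.90 while KO lay below WT in the other two numbers. Oasl2 stood at 4.04, 3.74 and 5.50 in the KO libraries and 5.20, 3.68 and 5.86 in the WT libraries, with the libraries numbered 4 the highest in each genotype.

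The transcription factors had a median of -0.28 between KO and WT, all 5 lower on average and 4 of them in each number. Irf9 and Stat2, which act together in the complex that binds the ISRE, differed in how they varied. Irf9 stood at 3.41, 3.13 and 4.63 in the KO libraries and 3.86, 3.42 and 4.73 in the WT libraries. Stat2 stood at 4.31, 3.99 and 4.30 in the KO libraries and 4.66, 4.10 and 4.57 in the WT libraries. Irf9 was higher in the library numbered 4 than in numbers 1 and 2 by 1.36 in KO and 1.09 in WT, and Stat2 by 0.15 and 0.20. Irf7, the factor that amplifies interferon production, stood at 1.37, 0.53 and 2.13 in the KO libraries and 2.91, 0.37 and 2.89 in the WT libraries. It was the only factor with KO above WT in number 2, and WT 1 exceeded WT 2 by 5.82-fold. Irf1, a factor that also acts in the interferon gamma response, stood at 6.13, 6.20 and 7.22 in the KO libraries and 6.70, 6.41 and 7.24 in the WT libraries. Nmi, a binding partner of STAT proteins, stood at 4.57, 4.64 and 5.33 in the KO libraries and 5.01, 4.92 and 5.53 in the WT libraries. KO minus WT for Nmi was -0.44, -0.28 and -0.19 in numbers 1, 2 and 4, and with the block its difference of -0.30 had SE 0.07 and adjusted p = 0.268 (limma).

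The regulators that act through ISG15, ubiquitin or ADP-ribose had a median of -0.31, with 9 of 9 lower in KO on average and 5 of 9 in each number. Isg15, the ubiquitin-like protein that is joined to other proteins, stood at 3.78, 3.35 and 3.70 in the KO libraries and 4.59, 2.98 and 4.17 in the WT libraries. The KO libraries lay between WT 2, which was below all of them, and WT 1 and WT 4, which were above. Usp18, which removes ISG15 and also damps receptor signalling, stood at 0.42, -0.54 and 1.73 in the KO libraries and 1.01, -0.52 and 2.31 in the WT libraries. Usp18 rested on 11 to 92 reads per library. Herc6, the main ligase for ISG15 in mice, stood at 2.99, 2.72 and 3.71 in the KO libraries and 3.76, 3.07 and 3.86 in the WT libraries. Herc6 was lower in KO in each number, and 12.5% of its 50-base stretches occur in another gene. Trim30a, a tripartite motif protein that restrains inflammatory signalling, stood at 0.93, -0.96 and 1.96 in the KO libraries and 1.77, 0.10 and 2.47 in the WT libraries, with 8 reads in KO 2. Trim25, a ubiquitin ligase for RIG-I, stood at 7.04, 6.93 and 7.16 in the KO libraries and 7.24, 6.96 and 7.18 in the WT libraries. The 2 tripartite motif genes were at opposite ends: Trim30a spanned 3.43 log2 units and Trim25 0.31. Dtx3l and Parp9 form a ubiquitin ligase complex. Dtx3l stood at 5.14, 5.10 and 6.03 in the KO libraries and 5.57, 5.20 and 6.01 in the WT libraries. Parp9 stood at 4.94, 4.93 and 5.60 in the KO libraries and 5.63, 5.07 and 5.71 in the WT libraries. Both were highest in number 4 in each genotype. Parp12, an enzyme that adds single ADP-ribose units, stood at 5.51, 5.34 and 5.62 in the KO libraries and 5.99, 5.51 and 5.60 in the WT libraries. Parp14, another such enzyme, stood at 4.70, 4.49 and 6.10 in the KO libraries and 5.49, 4.75 and 6.0 in the WT libraries. Parp12 was highest in WT 1 and Parp14 in KO 4.

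The direct effectors block steps of virus growth. All 12 were lower in KO on average, by a median of -0.46, and 4 were lower in each number, namely Ifit3b, Bst2, Isg20 and Samd9l. Ifit1, which binds viral RNA that lacks the host cap and stops its translation, stood at 2.32, 1.67 and 3.56 in the KO libraries and 3.46, 1.56 and 4.18 in the WT libraries. Ifit3, its binding partner, stood at -0.19, -1.32 and 0.67 in the KO libraries and 0.48, -1.41 and 1.42 in the WT libraries. In both genes KO lay below WT in numbers 1 and 4, with differences of -1.13 and -0.63 for Ifit1 and -0.67 and -0.75 for Ifit3, and slightly above it in number 2. Ifit3 rested on 6 to 49 reads per library and shared 51.2% of its 50-base stretches with Ifit3b. Ifit3b had 6, 2 and 7 reads in the KO libraries and 20, 6 and 23 in the WT libraries. It reached a log2 CPM of 0 only in WT 1 and WT 4, so it failed the filter and was not tested, and its KO minus WT difference of -1.49 is a description. Ifit2 stood at 4.17, 4.03 and 4.56 in the KO libraries and 4.46, 4.23 and 4.45 in the WT libraries and spanned only 0.53 log2 units, far less than Ifit1 or Ifit3.

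Rsad2, the enzyme viperin that makes a chain-terminating nucleotide, and Cmpk2, a nucleotide kinase encoded beside it, followed the same course. Rsad2 stood at 1.77, 0.69 and 3.25 in the KO libraries and 2.93, 0.64 and 3.57 in the WT libraries. Cmpk2 stood at 0.89, 0.58 and 2.53 in the KO libraries and 2.79, 0.48 and 3.01 in the WT libraries. In both, KO 2 and WT 2 were within 0.10 of each other and lower than every other library. The guanylate-binding proteins Gbp2 and Gbp3 are GTPases that attack vacuoles of intracellular pathogens. Gbp2 stood at 3.72, 3.46 and 5.12 in the KO libraries and 4.90, 3.22 and 5.59 in the WT libraries. Gbp3 stood at 2.89, 2.57 and 3.62 in the KO libraries and 4.54, 2.54 and 3.72 in the WT libraries. Gbp2 was highest in WT 4 and Gbp3 in WT 1. Ifitm3, which blocks fusion of incoming virus and had the highest level per kilobase of all 44 genes at 7.42 log2 CPM per kilobase, stood at 6.75, 6.80 and 6.63 in the KO libraries and 7.12, 6.79 and 7.01 in the WT libraries. It had the smallest unadjusted p of the effectors, at a difference of -0.25 (SE 0.12; limma, adjusted p = 1.00). Bst2, the tether that holds budding virus at the membrane, stood at 5.19, 4.83 and 5.08 in the KO libraries and 5.98, 4.99 and 5.51 in the WT libraries. Isg20, an RNA exonuclease, stood at 4.79, 4.69 and 4.74 in the KO libraries and 5.09, 4.84 and 4.96 in the WT libraries. Samd9l, which restricts poxviruses, stood at 4.66, 4.50 and 4.76 in the KO libraries and 5.27, 4.69 and 4.78 in the WT libraries. For these 4 effectors, Ifitm3 to Samd9l, the libraries numbered 4 differed from the others by -0.05, 0.05, -0.01 and -0.01, and WT 1 was the highest library of each.

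The other induced genes had a median of -0.37, with 7 of 7 lower in KO on average and 5 of 7 in each number. Ifi44, a cytosolic protein of poorly known function, stood at 0.77, -0.67 and 3.59 in the KO libraries and 2.93, 0.24 and 4.03 in the WT libraries. It spanned 4.70 log2 units, the widest range of the 44 genes, from 10 reads in KO 2 to 305 in WT 4. Xaf1, which promotes apoptosis, stood at 1.42, 1.41 and 2.61 in the KO libraries and 2.68, 0.43 and 3.22 in the WT libraries. WT 2 was its lowest library, KO 1 and KO 2 lay between it and the other three, and KO 2 exceeded WT 2 by 0.98. Ifi27, a small membrane protein, stood at 4.86, 4.05 and 5.35 in the KO libraries and 5.99, 4.38 and 5.41 in the WT libraries. Rtp4, a chaperone of receptors, stood at 2.34, 2.36 and 3.89 in the KO libraries and 3.60, 2.26 and 4.19 in the WT libraries. KO 1 minus KO 2 was -0.02 for Rtp4, whereas WT 1 was 1.34 above WT 2, and 11.6% of the 50-base stretches of Rtp4 occur in another gene. Sp100, a component of nuclear bodies, stood at 3.24, 2.90 and 4.04 in the KO libraries and 3.76, 3.04 and 4.16 in the WT libraries. Ifi35, the binding partner of Nmi, stood at 4.61, 4.44 and 4.32 in the KO libraries and 5.10, 4.54 and 4.60 in the WT libraries. Ifi35 was higher in WT 1 than in every other library and not higher in number 4. Lgals3bp, a secreted glycoprotein that binds galectins, stood at 5.32, 4.92 and 5.79 in the KO libraries and 5.89, 5.29 and 5.96 in the WT libraries. KO minus WT was -0.56, -0.37 and -0.17 in numbers 1, 2 and 4, and its difference of -0.37 had SE 0.28 without the block and 0.08 with it (limma).

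Libraries 1 and 2 of the same genotype were compared next, as the spread against which the genotypes are read. WT 1 exceeded WT 2 in 44 of 44 genes, against 50.2% of all genes, by a median of 1.01 or 2.02-fold, and 22 of the 44 differed by over 1 log2 unit, against 1.24% of all genes. KO 1 exceeded KO 2 in 39 of 44, against 49.7%, by a median of 0.29, and 6 differed by over 1, against 0.355%. WT 1 was the highest of the libraries numbered 1 and 2 in 44 of 44 genes, against 27.0% of all genes. The difference was larger in WT than in KO for 43 of 44, Trim30a being the exception, against 49.9%. By arithmetic this is the same as KO minus WT being more negative in number 1 than in number 2. The counts that rest on a high WT 1 are thus not separate results. Both libraries numbered 1 lay above both numbered 2 for 28 of 44, against 18.4%. The same held for 6 of the 7 mitochondrially encoded genes, whose part in the pattern was not tested. A fit of number 1 against number 2 with a genotype term called 0 of the 43 tested, against 0.0266% of all genes, with the lowest adjusted p at 0.0902 for Trim30a (limma). At an unadjusted p under 0.05 it held 33 of the 43, all higher in number 1, against 5.64% of all genes higher and 9.32% in either direction. That count too is a description, as the genes were chosen with earlier results known and vary together. The fit also counts the KO and WT libraries of a number as independent, so its p-values do not measure the spread between numbers.

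By role, the WT 1 minus WT 2 difference had a median of 1.61 in the effectors, 1.52 in the OAS family, 1.34 in the other induced genes, 0.69 in the ISG15, ubiquitin and ADP-ribose regulators, 0.61 in the sensors and 0.44 in the transcription factors. The genes with the largest differences were Ifi44 at 2.69, Irf7 at 2.54, Cmpk2 at 2.31 and Rsad2 at 2.29. The smallest were Nmi at 0.09 and Adar at 0.12. Genes with a lower mean log2 CPM had larger differences: across the 44 genes the mean level and the WT 1 minus WT 2 difference had Pearson r = -0.707 and Spearman rho = -0.703, given as a description because the genes share libraries. The 17 genes with an ISRE core in their promoter had a median WT 1 minus WT 2 difference of 1.53, and the 20 matched genes without it 0.58. Those with a core also had a lower mean log2 CPM at the median, and the part of the core in the difference was not tested. The near copies Ifit3 and Ifit3b, and Oas1a and Oas1g, each count separately among the 17. Isg15, Ifit1, Ifit3, Ifit3b, Rsad2 and Oas3, whose promoters are printed above, had differences of 1.61, 1.89, 1.90, 1.53, 2.29 and 1.53, and Xaf1, which has no core there, had 2.26. Genes with a core whose promoters are not printed ran from 0.33 for Ifitm3 to 2.00 for Gbp3. The differences in WT and in KO share no library, and across the 44 genes they had r = 0.645 and rho = 0.715, against r = 0.256 and rho = 0.216 over all 11269 genes.

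**Figure D3:**
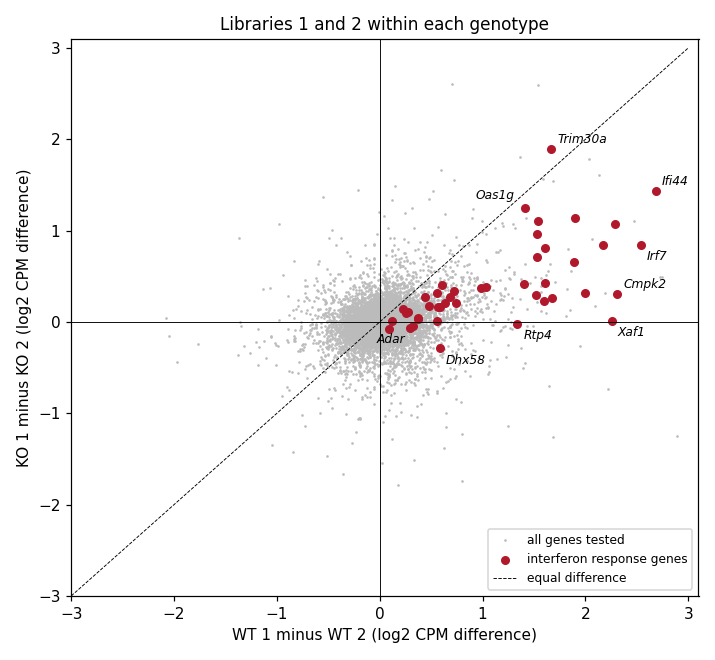
Each point is a gene, with WT 1 minus WT 2 on the horizontal axis and KO 1 minus KO 2 on the vertical axis, both as log2 CPM differences, and a dashed line of equality. Grey points are all genes tested and red points the 44 interferon response genes, every one of which lies right of 0, and all but Trim30a below the line.

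The libraries numbered 4 were compared with those numbered 1 and 2. Most of the transcriptome differed here: limma with a genotype term called 65.6% of all genes, 31.8% higher and 33.8% lower. This fit, too, counts the KO and WT libraries of a number as independent, though they varied together. Its SE and p-values therefore do not measure the spread between numbers. Of the 43 interferon response genes tested, 27 were higher in the libraries numbered 4 and 0 were lower. The share called was thus near that of all genes, while the calls lay on 1 side. Of the 7 mitochondrially encoded genes 6 were called lower, and their part in the difference was not tested. The median difference was 0.68 over the 44 genes, or 1.61-fold, against 0.00 over all genes. On average 40 of the 44 were higher, against 50.3% of all genes, and the median was 0.87 in KO and 0.65 in WT. The count of 27 depended on the variance model and on the libraries, with 16 of the 43 called without a trend in the variance or with a robust variance. The share of all genes called in those fits is not reported here, so the fall is not read as a trait of these genes. Both libraries numbered 4 lay above the other 4 libraries for 18 of the 44 genes, against 35.8% of all genes, and below them for 0, against 37.0%.

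The higher genes included members of every role. The largest difference was that of Ifi44, at 2.99 (SE 0.67; limma, adjusted p = 0.00336) or 7.95-fold, followed by the sensor Zbp1 at 2.16 (SE 0.53; limma, adjusted p = 0.00599) and Usp18 at 1.93 (SE 0.44; limma, adjusted p = 0.00366). Smaller but tighter differences were those of Irf9 at 1.22 (SE 0.15), Ddx58 at 1.08 (SE 0.15), Irf1 at 0.87 (SE 0.10) and Nmi at 0.65 (SE 0.08), with limma adjusted p-values of 7.32e-05, 0.000177, 6.34e-05 and 6.64e-05. By role, 5 of 6 sensors, 2 of 5 OAS genes, 3 of 5 transcription factors, 6 of 9 regulators of ISG15, ubiquitin or ADP-ribose, 6 of the 11 effectors tested and 5 of 7 other genes were called higher. Of all genes 65.6% were called and 31.8% were called higher, and differences between these small roles were not tested. Eif2ak2 was the sensor not called, at 0.05. Isg15 at 0.26, Stat2 at 0.17 and the near copies Oas1a and Oas1g at 0.35 and 0.25 did not pass either, and Irf7, at 1.22 (SE 0.57), missed the threshold with a limma adjusted p of 0.0871.

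Which of the other libraries was taken as the base mattered in WT. WT 4 was above WT 2 in 44 of 44 genes, against 50.3% of all genes, but above WT 1 in only 27 of 44, against 49.5%. KO 4 was above KO 1 in 37 of 44, against 50.0%, and above KO 2 in 42 of 44, against 49.7%. Gbp3, for example, differed by -0.82 between WT 4 and WT 1 and by 1.18 between WT 4 and WT 2. The differences of number 4 from numbers 1 and 2 in KO and in WT had r = 0.886 across the 44 genes, against 0.921 over all genes. The WT 1 minus WT 2 difference, which shares no library with the KO comparison, had r = 0.663 with the KO 4 difference, against 0.0855 over all genes, and the KO 1 minus KO 2 difference had r = 0.533 with the WT 4 difference, against 0.0216. These are descriptions across genes, which are not independent replicates.

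**Figure D4:**
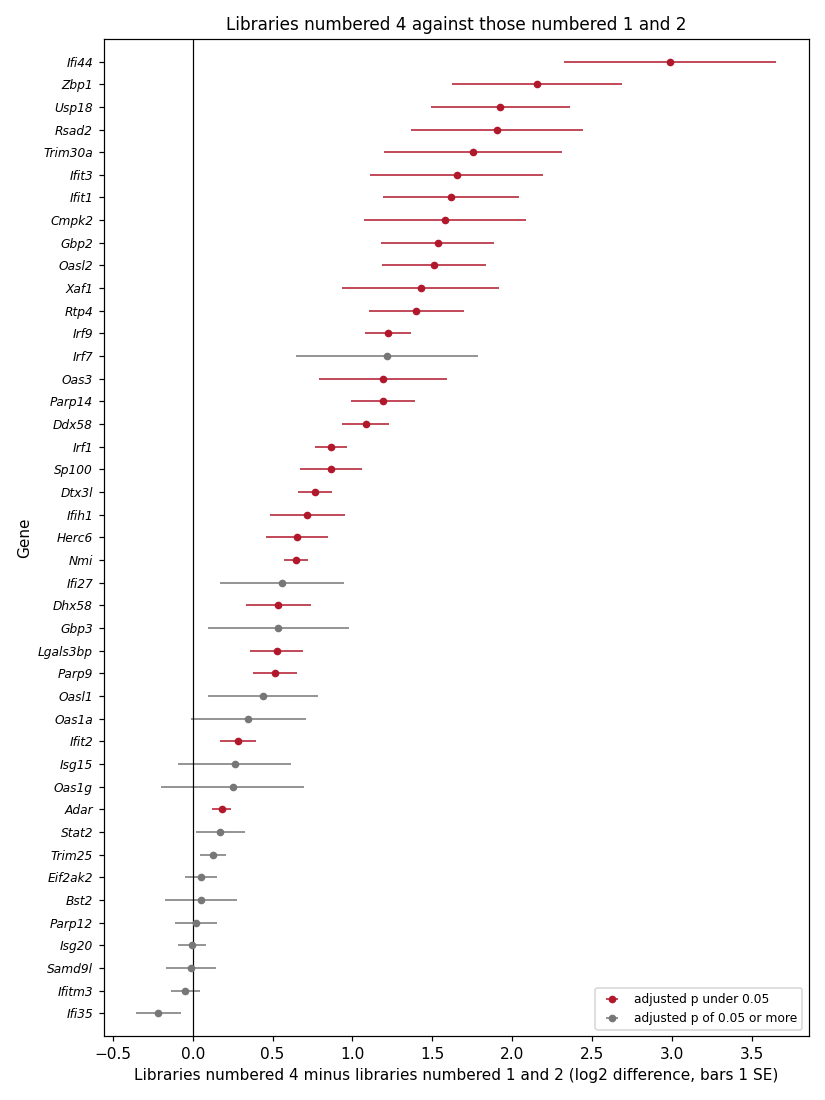
Points give the log2 difference of number 4 from numbers 1 and 2 for the 43 tested genes, bars 1 SE on each side, and red marks an adjusted p under 0.05 (limma with a genotype term). Ifi44 leads at 2.99, the 27 red genes all lie right of 0, and Ifi35 is lowest at -0.22.

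The genes of the steps that lead to these responses were taken from separate lists. Their counts in the libraries numbered 4 stand against 31.8% of all genes called higher and 33.8% called lower, and a share near these is no result about a list. Of the 6 measured interferon receptor genes 0 were called between KO and WT, with a median of -0.15, and 5 were higher in the libraries numbered 4. Ifnar1, a chain of the type I receptor, stood at 5.76, 5.79 and 6.22 in the KO libraries and 5.70, 5.80 and 6.16 in the WT libraries, so that the genotypes differed by 0.04. Of the 9 Janus kinases, STATs and other interferon regulatory factors 0 were called between the genotypes, and 5 were higher and 2 lower in number 4. Jak1, the kinase bound to the receptor, stood at 7.50, 7.51 and 7.47 in KO and at 7.64, 7.55 and 7.53 in WT. Of 14 adaptors and kinases of nucleic acid sensing 10 were measured, with 0 called between the genotypes, a median of -0.07, and 4 higher and 1 lower in number 4. Of 7 feedback inhibitors 0 were called between the genotypes, the median was 0.00, and 3 were lower in number 4. The smallest unadjusted p between KO and WT in each of these 4 lists was that of Ifngr2, a chain of the interferon gamma receptor, at -0.21, the factor Irf5 at -0.24, the adaptor Traf3 at 0.11 and the phosphatase Ptpn1 at 0.12, each with a limma adjusted p of 1.00. The 21 interferon ligand genes listed were not analysed here.

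A further 60 genes that interferons induce, outside the 47, gave 49 measured and 48 tested. Their median between KO and WT was -0.28, against -0.01 over all genes, with 42 of 49 lower on average, against 52.9%, and 0 called. WT 1 exceeded WT 2 by a median of 0.48, against 0.00 over all genes. In the libraries numbered 4, 31 of the 48 were called higher, against 31.8% of all genes, and 9 lower, against 33.8%. The smallest unadjusted p between KO and WT was that of Slfn8, of the Schlafen family, at -0.32 (SE 0.18; limma, adjusted p = 1.00). B2m, the light chain of MHC class I, stood at 8.67, 8.48 and 8.92 in KO and 9.01, 8.58 and 9.30 in WT, the same order of numbers in both genotypes. Slfn9, another member of the Schlafen family, stood at 7.08, 7.15 and 5.47 in KO and at 7.13, 7.04 and 5.45 in WT. The difference of number 4 from numbers 1 and 2 was -1.64 for Slfn9 (SE 0.06; limma, adjusted p = 8.55e-08), which went against most of the list.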

How the data were processed

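The deposited table holds log2 CPM values, which per the submitters' processing notes the authors made on genome build GRCm38 with edgeR, featureCounts (Subread 1.6.4), STAR 2.7.3a and Trimmomatic 0.39. The strand setting, annotation and normalization remain unknown, so reads of overlapping genes or near copies can be misassigned. All values of a library were whole multiples of a single step within 0.01, and the reads and library totals were recovered from these steps.

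The columns numbered 1 and 2 match the titles' pools of those numbers, and the columns numbered 4 match a genotype only. The members and lists were chosen with earlier results of these data known. limma 3.58.1 (R 4.3.3) was run on the deposited log2 values, with a variance that follows the mean and Benjamini-Hochberg adjustment over all 11269 genes with a log2 CPM of at least 0 in 3 or more of 6 libraries (183 were dropped). Tests are two-sided with a threshold of 0.05, and the code was tested on simulated data. With 3 libraries against 3, exact permutation reaches no p below 0.1. KO and WT deviations from the genotype means correlated at 0.744, 0.784 and 0.921 for numbers 1, 2 and 4, against 0.687 for KO 1 with WT 2, 0.617 for KO 2 with WT 1 and -0.846 to -0.746 for number 4 with another number. The numbers were therefore taken to pair the libraries, from the data and not from a label, though numbers 1 and 2 share much of their correlation. The fits that compare numbers do not use this pairing and count the libraries of a number as independent.

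All members are named. In each pathway list, the gene with the smallest p between KO and WT is named, and the 2 with the highest mean could be. Some list members are not reported here. Alternatives were other filters, a pseudocount of 1, median centring, quantile normalization, other variance models, limma voom on the recovered reads, the replicate block, a term for the libraries numbered 4 and leaving out each library. Those added after the data were seen were the block together with voom or quantile normalization, and leaving out both libraries numbered 1 or both numbered 2.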

Additional observations from a re-analysis of the deposited data

Results flagged for a closer look

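In 5 genes the difference between libraries 1 and 2 had opposite signs in the 2 genotypes. Each value rests on 1 library, and the contrast was not tested. In KO the difference was small for all of them but Dhx58. The share of all genes with opposite signs is not reported here, so the count is not read as a trait of these genes. For Rtp4, WT 1 minus WT 2 was 1.34 and KO 1 minus KO 2 was -0.02, which are 1.36 apart. For Dhx58 they were 0.58 and -0.29, or 0.87 apart. For Ifitm3 they were 0.33 and -0.05, or 0.37 apart, for Irf1 0.29 and -0.07, or 0.36 apart, and for Nmi 0.09 and -0.07, or 0.16 apart. In the other 39 genes both differences were above 0.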

How the results depend on the processing

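Between KO and WT the number of genes called, 0, became 1 of all genes with the replicate block, with limma voom and the block, with quantile normalization and the block, and without the libraries numbered 1 with the block, and no member was called under any of the alternatives run. The replicate block changed no other call. The members' median difference ran from -0.66 to -0.13 over the fits that left out 1 library each. For the libraries numbered 4, the members called, 27, became 16 with no trend and 16 with robust variance, and ran from 10 to 34 when 1 library was left out. How many of all genes were called in those fits is not reported here, so these counts are not read as a trait of the members. Leaving out KO 4 or WT 4 also leaves only 1 library numbered 4. For number 1 against number 2 the genes called, 3, became 0 with no trend. Against numbers 1 and 2, number 4 changed sign for Parp12 under median centring (-0.00104) and for Myo1e (0.016) and Ifitm3 (0.051) under quantile normalization. The cause of these changes was not tested. Leaving out 1 library changed the sign of some genes between KO and WT, with ranges of Ddx58 -0.49 to 0.23, Ifih1 -0.58 to 0.057, Zbp1 -1.34 to 0.17, Irf9 -0.73 to 0.083, Usp18 -1.13 to 0.29, Ifit3 -1.23 to 0.18, Rsad2 -1.35 to 0.13, Oasl1 -0.47 to 0.33, Eif2ak2 -0.18 to 0.0022, Isg15 -0.77 to 0.032, Dtx3l -0.47 to 0.0396, Ifit1 -1.30 to 0.0044, Gbp2 -1.14 to 0.044 and Xaf1 -1.14 to 0.26. It did the same for number 4, with ranges of Isg20 -0.0603 to 0.048, Oas1g -0.037 to 0.57, Parp12 -0.15 to 0.20, Bst2 -0.16 to 0.27, Eif2ak2 -0.064 to 0.17, Oas1a -0.068 to 0.77, Ifitm3 -0.15 to 0.053, Samd9l -0.20 to 0.18 and Isg15 -0.10 to 0.59. Over the other filters, scalings, variance models and fits, the direction and side of the threshold held for 482 of 482 single-gene values between KO and WT and for 360 of 394 for the libraries numbered 4. Of the remaining 34, 30 lost the call, 1 gained it and 3 changed sign. In this balanced design the other filters, the limma variance models, the block and the term for number 4 cannot change the direction between KO and WT. Other filters and limma variance models cannot change it for number 4 either. The lowest adjusted p of the members between KO and WT was 0.9999 (limma), so the side of the threshold had little room to change. The reads limit the weakest members: Ifit3, Ifit3b, Oas1g, Trim30a and Usp18 each had fewer than 60 reads per library on average.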
